A study of Homo sapiens with 15 samples.

Results

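The genes described are the components of the mitogen-activated protein kinase (MAPK) cascades and the phosphatases around them, as listed in a table of group means from an RNA sequencing experiment in HEK293FT cells. Members were chosen by symbol alone: rows annotated as protein-coding whose symbol begins with MAPK, MAP2K, MAP3K, MAP4K, RPS6K, DUSP, SPRY or SPRED followed by a number, or a serine/threonine phosphatase catalytic (PPPxC) or regulatory (PPPxR) subunit. The rule found 68 rows with 67 distinct symbols, of 7447 protein-coding rows and 11230 rows in all. PPP2R3B holds a row on X and another on Y. The authors' deposited table holds only rows whose smallest adjusted p over the comparisons is under 0.1, and 105 of the 172 protein-coding symbols that the rule finds in the GENCODE annotation have no row in it. Genes such as MAPK3, MAPK14, DUSP1, DUSP4, DUSP5 and MAP2K1 are among these and were not analysed here.

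HEK293FT is an established human embryonic kidney line. All cells, control cells included, were co-transfected with plasmids for dCas9-VP64 (a catalytically dead Cas9 fused to an activation domain), an activator of MS2, p65 and HSF1 and 5 pooled guide RNAs, were placed in 2 ug/mL puromycin at 24 hours and gave RNA at 48 hours. The control pool was non-targeting, and the other 4 pools were directed 50 to 450 bp upstream of the start of a long non-coding RNA expressed transiently in differentiating cortical neurons (TrEx). Each of the 5 groups holds 3 libraries, made as biological triplicates in this single line. The groups are called by their library titles: control (scramxxx), trex0108, trex4039, trex5008 and trex8168. The target label of trex0108 reads TrEx108, and that of trex4039 reads TrEx4039. The libraries titled trex5008 carry the target label TrEx8168 and those titled trex8168 carry TrEx5008, a conflict that was not settled, so a direction given for either holds for the libraries so titled.

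MAPK cascades pass a signal down tiers of kinases. MAP4K and MAP3K enzymes take up signals from receptors, small GTPases and stress. MAP4K enzymes act a tier above MAP3K enzymes, and MAP3K enzymes phosphorylate MAP2K enzymes. The MAP2K enzymes phosphorylate the MAP kinases ERK, JNK and p38 on a threonine and a tyrosine. Dual-specificity phosphatases (DUSP) remove both phosphates again, and Sprouty (SPRY) proteins restrain the pathway near the receptor; DUSP6 and Sprouty genes are known as transcriptional targets of ERK activity, so their RNA is often read as a record of it. The PPP phosphatases act on kinases of every tier, with a few catalytic subunits steered by many regulatory ones. RNA levels give no phosphorylation or activity.

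The values are the authors' means of normalised counts per group, which are not divided by gene length, so levels are compared within a gene and never between genes. The authors' deposited log2 fold changes against control are shrunken toward 0, so they understate the ratio of the means. A gene is said to have risen, fallen or changed where the authors' adjusted p is under 0.05. All 4 comparisons use the same 3 control libraries. No value per library was used here, so no SD can be given, overlap between groups cannot be judged, and depth is unknown. Differences between the comparisons were not tested. In bulk RNA fewer cells of a type and less RNA per cell cannot be told apart.

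Several pairs of closely related members moved apart, and 3 such pairs, chosen after their values were seen, are set out first. MAP4K3 and MAP4K1 are upstream kinases of the JNK branch, MAP2K4 and MAP2K7 are the kinases that activate JNK, and DUSP6 and DUSP7 are cytoplasmic phosphatases with a preference for ERK. In each pair the first-named gene was higher and the second lower in trex4039. The 150 bases before the start of each gene are printed 5′ to 3′ from RefSeq (GRCh38.p14), where the regions are MAP4K3 chr2:39437286-39437435 (minus strand), MAP4K1 chr19:38617954-38618103 (minus), MAP2K4 chr17:12020727-12020876 (plus), MAP2K7 chr19:7903727-7903876 (plus), DUSP6 chr12:89352502-89352651 (minus) and DUSP7 chr3:52056572-52056721 (minus). Capitals mark the GC box, GGGCGG or its reverse complement CCGCCC, searched on both strands.
MAP4K3: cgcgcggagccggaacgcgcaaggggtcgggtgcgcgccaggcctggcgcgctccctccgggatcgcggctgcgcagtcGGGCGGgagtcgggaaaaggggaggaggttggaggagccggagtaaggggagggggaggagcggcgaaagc
MAP4K1: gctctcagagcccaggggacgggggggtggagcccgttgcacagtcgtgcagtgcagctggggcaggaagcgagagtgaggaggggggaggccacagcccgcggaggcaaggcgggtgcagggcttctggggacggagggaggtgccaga
MAP2K4: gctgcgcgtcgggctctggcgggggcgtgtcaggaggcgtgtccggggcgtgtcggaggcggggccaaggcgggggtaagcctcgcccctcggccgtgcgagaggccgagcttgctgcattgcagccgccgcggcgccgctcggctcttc
MAP2K7: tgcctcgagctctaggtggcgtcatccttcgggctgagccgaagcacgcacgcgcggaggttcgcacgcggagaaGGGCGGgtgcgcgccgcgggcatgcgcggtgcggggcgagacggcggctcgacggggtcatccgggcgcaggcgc
DUSP6: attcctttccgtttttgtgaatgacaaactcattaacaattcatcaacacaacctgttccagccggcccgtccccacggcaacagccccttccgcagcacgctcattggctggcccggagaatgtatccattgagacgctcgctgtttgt
DUSP7: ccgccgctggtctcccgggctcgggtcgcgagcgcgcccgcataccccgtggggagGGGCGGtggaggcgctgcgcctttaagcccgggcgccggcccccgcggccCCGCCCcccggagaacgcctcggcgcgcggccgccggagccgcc

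The GC box stands in the promoters of the riser MAP4K3 (1 match) and of the fallers MAP2K7 (1) and DUSP7 (2), and no match lies in these windows of MAP4K1, MAP2K4 and DUSP6. Promoter GC content did not separate the directions in these pairs either: it is 74.7% for MAP4K3 and 71.3% for MAP4K1, and 76.7% for MAP2K4 and 75.3% for MAP2K7. The DUSP pair differs, with 52.0% for DUSP6 and 84.0% for DUSP7. Promoters were found for 56 of the 67 symbols. A GC box lay in 66.1% of these 56, in 60.3% of 4711 listed protein-coding genes and in 36.7% of all 27305 promoters of the same length. Among members it lay in 61.5% of the 26 promoters of genes higher in trex4039 and in 68.2% of the 22 of genes lower.

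Across the 68 rows, the authors' deposited table calls 31 higher and 25 lower in trex4039, where 41.6% and 30.9% of the listed protein-coding rows were higher and lower. In trex5008, 23 were higher and 16 lower, beside 32.4% and 24.6% of protein-coding rows in the authors' deposited table. For trex8168 the counts were 12 and 0, beside 16.6% and 4.57%, and for trex0108 they were 3 and 1, beside 5.52% and 0.228%, in the authors' deposited table. As shares of the rows with an adjusted p, members were called higher in 45.6%, 34.8%, 17.9% and 4.41% and lower in 36.8%, 24.2%, 0% and 1.47% in trex4039, trex5008, trex8168 and trex0108, so their shares lie near the background. Over all 11230 listed rows the shares were 37.1% higher and 33.7% lower in trex4039, 29.8% and 24.3% in trex5008, 14.6% and 6.45% in trex8168 and 5.65% and 0.249% in trex0108. Their median log2 fold change was 0.12 in trex4039, -0.02 in trex5008, 0.09 in trex8168 and 0.02 in trex0108, and that of the listed protein-coding rows 0.09, 0.05, 0.06 and 0.03, in the authors' deposited table. The changes were small: by the log2 values of the authors' deposited table, the median size of a called member was 0.31 in trex4039, 0.25 in trex5008 and 0.21 in trex8168.

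**Figure D1:**
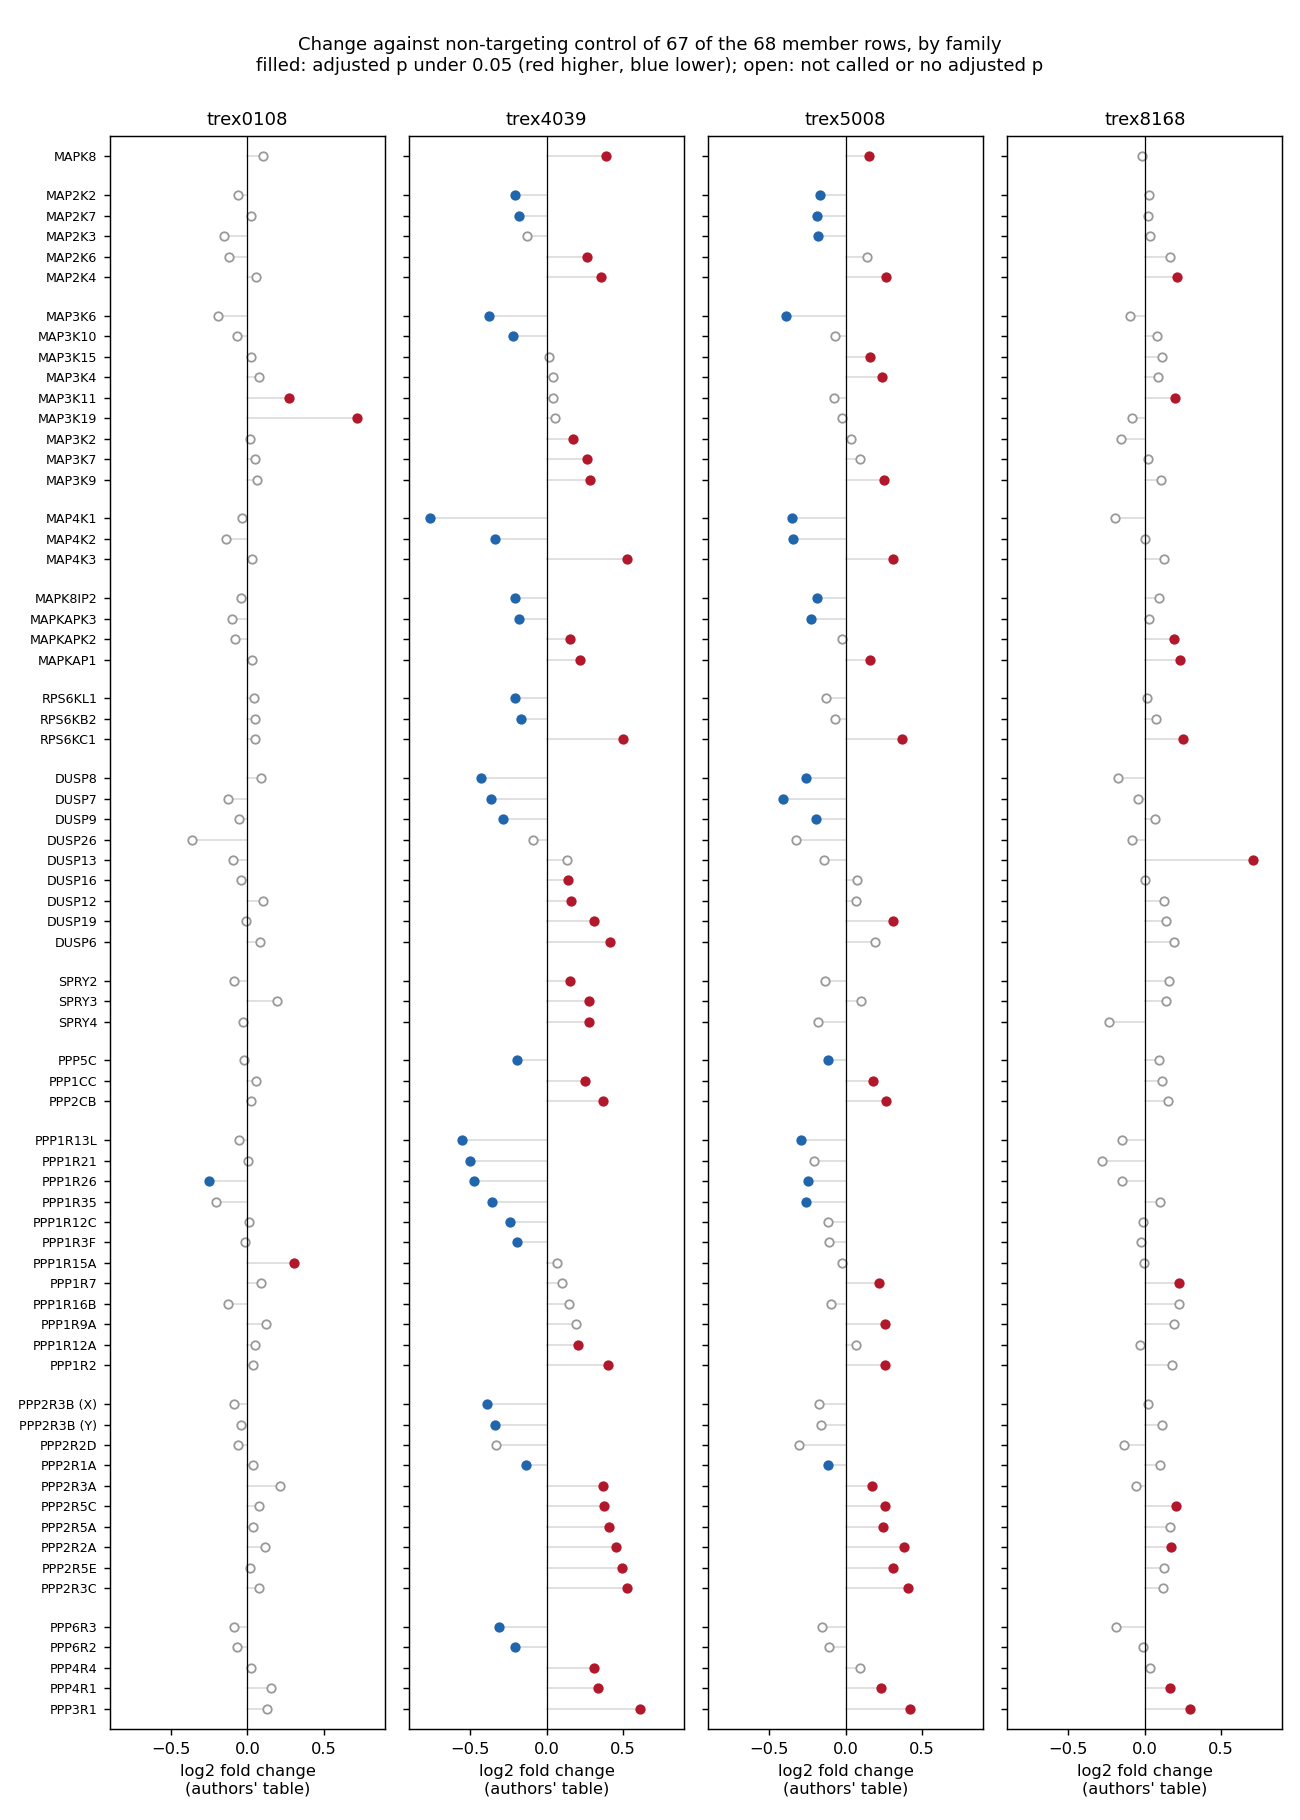
Deposited log2 fold change against control of 67 of the 68 member rows, grouped by family, in the 4 comparisons (x axis, log2 scale; filled red or blue points have an adjusted p under 0.05, open points do not or have none). In trex4039 30 points are red and 25 blue, in trex5008 22 and 16, in trex8168 11 and 0 and in trex0108 3 and 1, and most families hold points on both sides of 0.

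Directions were correlated with transcript GC content, mainly in trex4039 and trex5008 (described further down), and the cause of this was not tested. For members whose sign turned when that trend was removed, 2 values are given. The first is the deposited log2 fold change and the second, called GC-adjusted below, is the same value with the trend on GC over listed protein-coding rows removed and the median of those rows set to 0.

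MAP4K kinases sit at the top of the cascade. MAP4K1 (HPK1, a kinase best known from blood cells; hg19 chr19:39077929-39109666) had mean normalised counts of 289 in control, 281 in trex0108, 154 in trex4039, 218 in trex5008 and 247 in trex8168. It fell furthest of all members by deposited log2 fold change, with -0.76 (adjusted p 2.11e-12) in trex4039, and -0.35 (0.00197) in trex5008, in the authors' deposited table. Its GC-adjusted values were -0.52 and -0.15. MAP4K3 (GLK, linked to amino acid sensing; chr2:39372844-39665235) had means of 1499 in control, 1538 in trex0108, 2203 in trex4039, 1881 in trex5008 and 1641 in trex8168. It rose by 0.52 in trex4039 (adjusted p 7.77e-15) and 0.31 in trex5008 (1.96e-05) in the authors' deposited table, with GC-adjusted values of 0.23 and 0.11. The ratio of MAP4K3 to MAP4K1 means was 5.19 in control, 5.48 in trex0108, 14.3 in trex4039, 8.65 in trex5008 and 6.65 in trex8168. MAP4K2, the third listed of 5 MAP4K symbols, fell from 704 to 546 in trex4039 and to 544 in trex5008, with -0.34 in both in the authors' deposited table (GC-adjusted -0.23 and -0.25), and stood at 703 in trex8168.

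MAP3K kinases, 9 listed of 19 symbols, held 2 of the 3 rises of trex0108. MAP3K19 (chr2:135721499-135805166), one of the less studied kinases of this tier, had means of 8.82 in control, 34.7 in trex0108, 10.3 in trex4039, 8.22 in trex5008 and 6.35 in trex8168. Its trex0108 mean was 393% of control, with a shrunken log2 fold change of 0.71 (adjusted p 5.05e-06) in the authors' deposited table. The counts of MAP3K19 are low, with a mean of 13.7 over all libraries, and no adjusted p is given in trex5008 and trex8168. With a mean of at least 50 required, 2 members were higher in trex0108 in place of 3. MAP3K11 (MLK3, a mixed-lineage kinase upstream of JNK) rose from 2476 to 3015 in trex0108 (0.27, adjusted p 0.000775) and to 2865 in trex8168 (0.20, adjusted p 0.0171) in the authors' deposited table. Its means in trex4039 and trex5008, 2559 and 2345, were not called. The MAP3K11 row (chr11:65364593-65405481) lies wholly within a stretch that the row of RELA also covers, and which strand was counted is not stated in these sources. RELA fell in trex4039 and trex5008, with -0.22 and -0.28, and was not called in trex0108 (-0.04) in the authors' deposited table.

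In trex4039 3 MAP3K genes rose and 2 fell, and in trex5008 3 rose and 1 fell, in the authors' deposited table, of which MAP3K2, MAP3K7 and MAP3K10 had GC-adjusted values of the other sign in trex4039. MAP3K9 (MLK1) went from 1186 in control to 1469 in trex4039 and 1436 in trex5008, and MAP3K10 (MLK2), of the same mixed-lineage group, from 1167 to 989 and 1108. MAP3K9 rose by 0.28 and 0.25, with GC-adjusted values of 0.55 and 0.47. MAP3K10 fell in trex4039 by 0.22 in the authors' deposited table, where its GC-adjusted value was 0.13, and was not called in trex5008. MAP3K7 (TAK1, the kinase of cytokine and TGF-beta signals) went from 4407 to 5322 in trex4039, an increase of 0.26 (adjusted p 1.48e-05) in the authors' deposited table, but its GC-adjusted value was -0.05. MAP3K6 (ASK2) fell from 899.5 to 679.7 in trex4039 and 669 in trex5008, by 0.37 and 0.39 in the authors' deposited table; a SYTL1 row covers all of it, and SYTL1 fell too, with -0.71 and -0.47. The GC-adjusted values of MAP3K6 were -0.07 and -0.15. MAP3K2 (MEKK2) rose by 0.17 in trex4039, and MAP3K4 (MEKK4) and MAP3K15 by 0.24 and 0.16 in trex5008, in the authors' deposited table. The GC-adjusted values were -0.19 for MAP3K2, 0.12 for MAP3K4 and 0.20 for MAP3K15.

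Genes of the MAP2K tier moved in either direction. Of 5 listed genes of 7, 2 rose and 2 fell in trex4039 and 1 rose and 3 fell in trex5008 in the authors' deposited table, and every MAP2K gene that fell had a GC-adjusted value above 0. MAP2K4 (MKK4; chr17:11924090-12067293) had means of 2207 in control, 2304 in trex0108, 2854 in trex4039, 2671 in trex5008 and 2568 in trex8168. It rose by 0.36, 0.26 and 0.21 in the last 3 groups (adjusted p 6.47e-09, 4.55e-05 and 0.00561 in the authors' deposited table), and the GC-adjusted values were 0.09, 0.08 and 0.11. MAP2K7 (MKK7; chr19:7968497-7981011) had 1976 in control, 2005 in trex0108, 1729 in trex4039, 1726 in trex5008 and 2005 in trex8168. It fell by 0.18 in both trex4039 and trex5008 (adjusted p 0.00764 and 0.00786 in the authors' deposited table), where its GC-adjusted values were 0.11 and 0.05. The ratio of MAP2K4 to MAP2K7 means went from 1.12 in control to 1.65 in trex4039 and 1.55 in trex5008.

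MAP2K2 (MEK2), a kinase that activates ERK, went from 6601 in control to 5692 in trex4039 and 5838 in trex5008, and fell by 0.20 and 0.17 in the authors' deposited table with GC-adjusted values of 0.12 and 0.09. MAP2K3 and MAP2K6 are the kinases that activate p38, and no comparison called both. MAP2K3 (MKK3) stood at 1713 in control and 1503 in trex5008, where it fell by 0.18 in the authors' deposited table (GC-adjusted 0.02). MAP2K6 (MKK6) stood at 865 in control and 1051 in trex4039, where it rose by 0.26 in the authors' deposited table (GC-adjusted -0.05).

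Of the MAP kinases themselves, MAPK8 (JNK1; chr10:49514665-49654666) had means of 1809 in control, 1950.0 in trex0108, 2395 in trex4039, 2015 in trex5008 and 1782 in trex8168. It rose by 0.39 in trex4039 (adjusted p 1.98e-10) and 0.15 in trex5008 (0.0286) in the authors' deposited table, and the GC-adjusted value was 0.06 in the first and -0.06 in the second. In trex0108 and trex8168 it was not called.

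Below the MAP kinases, the p38 substrates MAPKAPK2 (MK2) and MAPKAPK3 (MK3) moved apart in trex4039. Their transcripts have a GC content of 57.7% and 56.8%. MAPKAPK2 had means of 2164 in control, 2043 in trex0108, 2420.2 in trex4039, 2127 in trex5008 and 2480.3 in trex8168. It rose by 0.16 in trex4039 and 0.19 in trex8168 (adjusted p 0.0141 and 0.00879 in the authors' deposited table), with GC-adjusted values of 0.37 and 0.21. MAPKAPK3 had means of 2687 in control, 2496 in trex0108, 2361 in trex4039, 2279 in trex5008 and 2740 in trex8168. It fell by 0.18 in trex4039 and 0.23 in trex5008 (adjusted p 0.00218 and 9.92e-05 in the authors' deposited table), with GC-adjusted values of 0.01 and -0.07. The MAPKAPK2 row (chr1:206858233-207188836) spans 670% of the annotated gene and may hold neighbouring transcripts.

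MAPKAP1 (SIN1), a subunit of the mTORC2 kinase complex despite its symbol, rose in trex4039, trex5008 and trex8168, from 3517 in control to 4120, 3942 and 4155. The log2 fold changes were 0.22, 0.16 and 0.23 (adjusted p 3.45e-05, 0.00478 and 0.000135 in the authors' deposited table) and the GC-adjusted values 0.17, 0.13 and 0.16. The JNK scaffold MAPK8IP2 (JIP2) fell by 0.21 and 0.19 in trex4039 and trex5008 in the authors' deposited table, with GC-adjusted values of 0.14 and 0.08.

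Of the ribosomal S6 kinase family and its relatives 3 of 10 symbols were listed. RPS6KC1, a lipid-binding relative, went from 1147 in control to 1191 in trex0108, 1644 in trex4039, 1498 in trex5008 and 1374 in trex8168. It rose by 0.50, 0.37 and 0.25 in the last 3 groups (adjusted p 3.07e-17, 3.13e-09 and 0.000539 in the authors' deposited table) and stayed above 0 with GC-adjusted values of 0.23, 0.18 and 0.15. RPS6KL1 fell by 0.21 in trex4039, from 989 to 849, and RPS6KB2 (S6K2, a kinase of ribosomal protein S6 under mTORC1) by 0.17, from 2796 to 2468, in the authors' deposited table. Their GC-adjusted values were -0.04 and 0.12, and neither was called in the other comparisons.

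**Figure D2:**
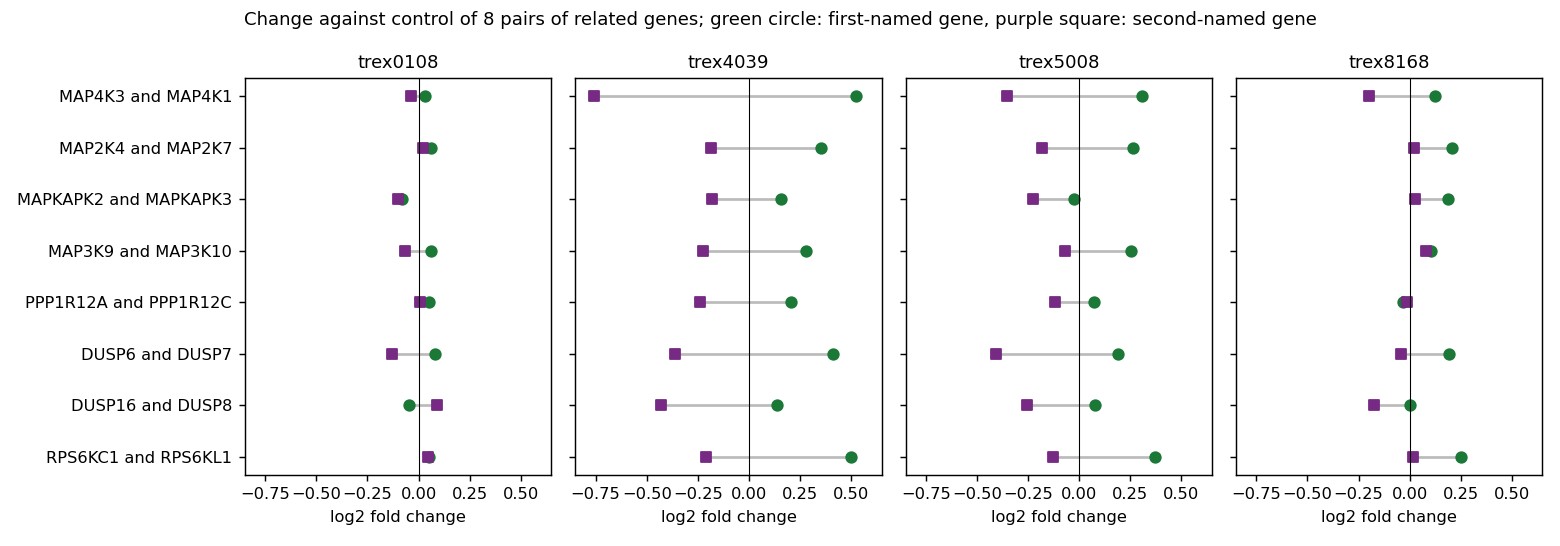
Deposited log2 fold change against control of 8 pairs of related members in the 4 comparisons (green circles, the gene named first; purple squares, the gene named second; x axis, log2 scale). In trex4039 all 8 circles lie above 0 and all 8 squares below it, and in trex0108 no member of a pair was called; the pairs were chosen after their values were seen.

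These pairs were chosen for moving apart, so their divergence is a description. By GC-adjusted value the order in trex4039 turned for MAP2K4 and MAP2K7 (0.09 and 0.11) and for PPP1R12A and PPP1R12C (-0.10 and 0.10). In the other pairs the gene named first stayed the higher. The ratios below carry no such adjustment. In trex4039 the ratio of the means of the gene named first to the gene named second was 275% of its control value for MAP4K3 and MAP4K1, 188% for DUSP6 and DUSP7, 167% for RPS6KC1 and RPS6KL1 and 153% for DUSP16 and DUSP8. It was 148% for MAP2K4 and MAP2K7, 146% for MAP3K9 and MAP3K10, 138% for PPP1R12A and PPP1R12C and 127% for MAPKAPK2 and MAPKAPK3. In trex5008 the 8 ratios lay between 115% and 167% of control.

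The dual-specificity phosphatases, 9 listed of 24 symbols, held members that rose and members that fell in trex4039, 4 and 3 in number, and 1 and 3 in trex5008, in the authors' deposited table, of which DUSP9, DUSP16 and DUSP19 had GC-adjusted values of the other sign in trex4039. DUSP6 (MKP3; chr12:89736270-89747712) had means of 119 in control, 129 in trex0108, 172 in trex4039, 141 in trex5008 and 143 in trex8168. It rose in trex4039, by 0.41 (adjusted p 0.00184 in the authors' deposited table; GC-adjusted 0.23), and the adjusted p was 0.213 in trex5008 and 0.293 in trex8168. DUSP7 (chr3:52079359-52090583), with a like preference for ERK, had means of 1190 in control, 1083 in trex0108, 912 in trex4039, 883 in trex5008 and 1153 in trex8168. It fell by 0.36 in trex4039 and 0.41 in trex5008 (adjusted p 4.2e-07 and 3.29e-08 in the authors' deposited table), with GC-adjusted values of -0.12 and -0.21. DUSP9 (MKP4), the remaining cytoplasmic ERK phosphatase of this group, went from 573 in control to 461 and 495 and fell by 0.29 and 0.19 in trex4039 and trex5008 in the authors' deposited table, but its GC-adjusted values were 0.04 and 0.07.

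DUSP16 (MKP7) and DUSP8 act mainly on the stress kinases JNK and p38. DUSP8 went from 549.8 in control to 587 in trex0108, 395 in trex4039, 453 in trex5008 and 482 in trex8168. It fell by 0.43 and 0.26 in trex4039 and trex5008 (adjusted p 9.58e-07 and 0.00589 in the authors' deposited table), and its GC-adjusted values were -0.11 and -0.00. An unnamed row with a control mean of 6012 covers all of the DUSP8 row. That row fell too, with -0.18 and -0.21 in the authors' deposited table. DUSP16 rose by 0.14 in trex4039 in the authors' deposited table, from 3063 to 3380.3, with a GC-adjusted value of -0.03. Among atypical members, DUSP19, a phosphatase that can bind JNK pathway kinases, stood at 413 in control and at 525 and 523 in trex4039 and trex5008. It rose by 0.31 in both in the authors' deposited table, and its GC-adjusted values were -0.03 and 0.09. DUSP12 rose by 0.16 in trex4039, from 1093 to 1232, in the authors' deposited table (GC-adjusted 0.01).

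DUSP13, known from testis and muscle (chr10:76850877-76868945), had means of 57.9 in control, 51.7 in trex0108, 66.5 in trex4039, 49.4 in trex5008 and 115 in trex8168. The trex8168 mean was 199% of control, with a log2 fold change of 0.71 (adjusted p 1.42e-05) in the authors' deposited table. The other 3 groups lay between 85.3% and 115% of control. SAMD8, whose row covers 53.1% of the DUSP13 row, had 1897 in control and 1907 in trex8168, and its adjusted p there was 0.946 in the authors' deposited table. DUSP26 was called in no comparison, where its adjusted p in the authors' deposited table ranged from 0.0592 to 0.775.

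The Sprouty genes SPRY2, SPRY3 and SPRY4, 3 listed of the 7 SPRY and SPRED symbols, were each higher in trex4039 and called in no other comparison. SPRY4 (chr5:141656129-141709586) had means of 257 in control, 251 in trex0108, 328 in trex4039, 219.8 in trex5008 and 209 in trex8168. SPRY2 had 1118 in control, 1047 in trex0108, 1248 in trex4039, 1013 in trex5008 and 1251 in trex8168. SPRY3 had 201 in control, 237 in trex0108, 254 in trex4039, 219 in trex5008 and 225 in trex8168. Thus trex5008 lay below control for SPRY2 and SPRY4 and above it for SPRY3. In trex4039 the log2 fold changes were 0.28 for SPRY4, 0.15 for SPRY2 and 0.28 for SPRY3, and the adjusted p were 0.0441, 0.0362 and 0.0286, in the authors' deposited table. All 3 lie close to the threshold, and at an adjusted p under 0.01 none is called. The GC-adjusted values were 0.31, 0.02 and 0.01. The rows of SPRY2, SPRY3 and SPRY4 span 582%, 1791% and 334% of the annotated gene, so they may hold neighbouring transcripts.

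**Figure D3:**
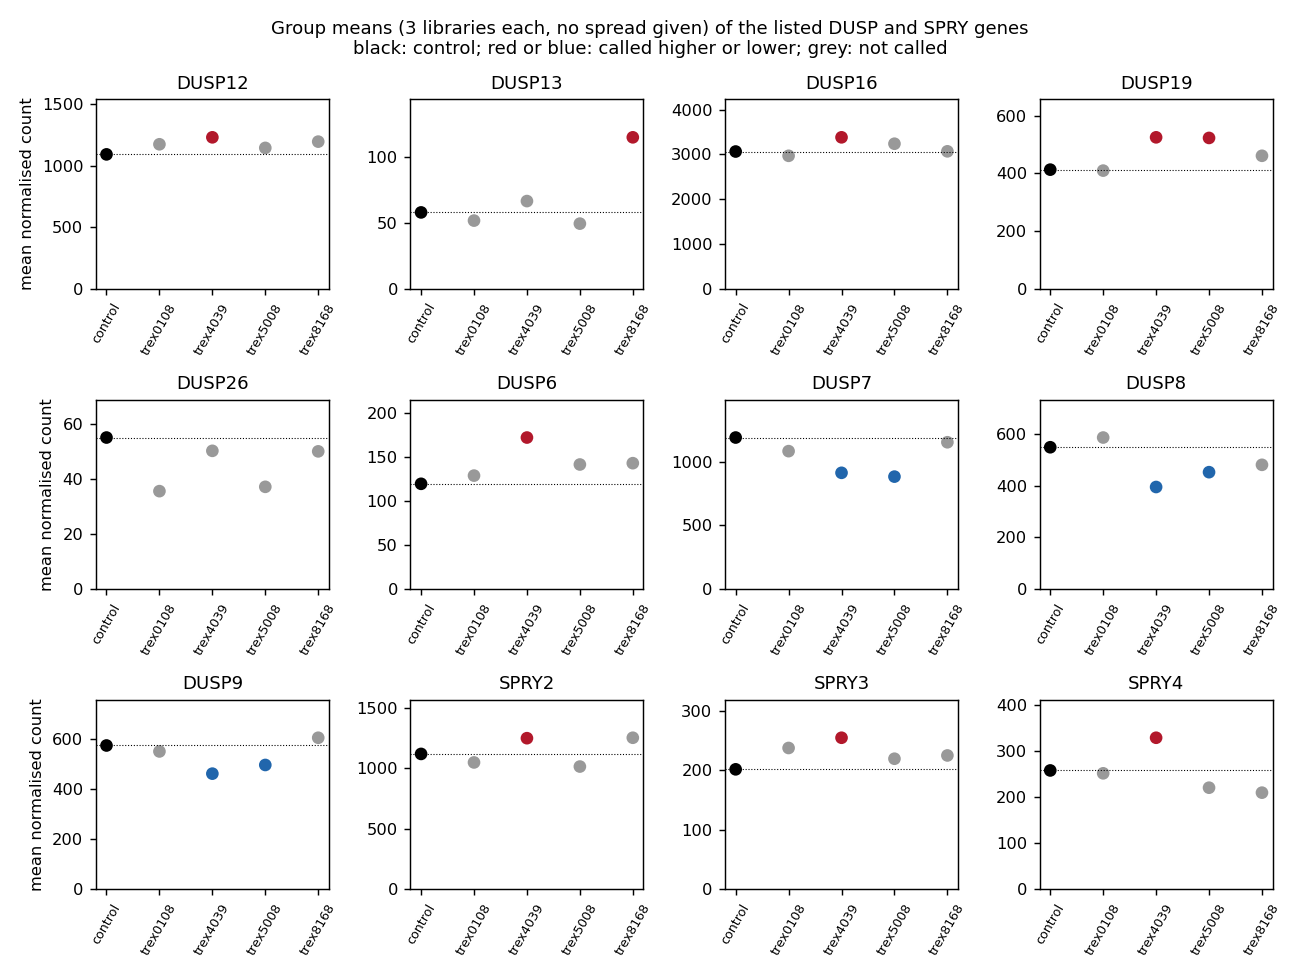
Mean normalised count (y axis, from 0) of the 9 listed DUSP and 3 listed SPRY genes in the 5 groups, 1 point per group mean of 3 libraries, with the control level as a dotted line. DUSP13 stands out in trex8168 at 115 against 57.9 in control, DUSP7, DUSP8 and DUSP9 lie under control in trex4039 and trex5008, and the 3 SPRY genes are called higher in trex4039.

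Of the phosphatase catalytic subunits 3 of 11 were listed. PPP2CB, the beta catalytic subunit of PP2A, went from 2186 in control to 2225 in trex0108, 2856 in trex4039, 2646 in trex5008 and 2443 in trex8168. It rose by 0.37 in trex4039 and 0.26 in trex5008 (adjusted p 2.47e-08 and 0.000177 in the authors' deposited table), with GC-adjusted values of 0.23 and 0.16. PPP1CC, the gamma subunit of PP1, rose by 0.25 and 0.18 in the same groups in the authors' deposited table, from 9327 to 11209.6 and 10661, with GC-adjusted values of 0.05 and 0.04. PPP5C, a phosphatase that binds HSP90, fell by 0.20 and 0.12 in the authors' deposited table, from 6136 to 5338 and 5646, where its GC-adjusted values were 0.04 and 0.08.

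The regulatory subunits of PP2A, 10 rows for 9 of 14 symbols, had 6 rows higher and 3 lower in trex4039, 6 and 1 in trex5008 and 2 and 0 in trex8168 in the authors' deposited table, and of the risers PPP2R3A in trex5008 alone had a GC-adjusted value below 0. The B subunit PPP2R2A went from 5582 in control to 6076 in trex0108, 7738 in trex4039, 7346 in trex5008 and 6313 in trex8168. It rose by 0.45, 0.38 and 0.17 in the last 3 (adjusted p 2e-16, 3.73e-11 and 0.0153 in the authors' deposited table), and the GC-adjusted values were 0.15, 0.18 and 0.09. The B56 subunits PPP2R5A, PPP2R5C and PPP2R5E rose by 0.41, 0.38 and 0.49 in trex4039 and by 0.24, 0.26 and 0.31 in trex5008 in the authors' deposited table, with GC-adjusted values from 0.07 to 0.23. PPP2R3C stood at 1952 in control, 2894 in trex4039 and 2647 in trex5008, rises of 0.53 and 0.41 in the authors' deposited table, with GC-adjusted values of 0.24 and 0.21. An unnamed row with a control mean of 1197 covers 75.9% of the PPP2R3C row. That row rose too, by 0.24 and 0.16 in the authors' deposited table. PPP2R3A, of the same B'' group as PPP2R3C, rose by 0.37 and 0.17 in the authors' deposited table, with GC-adjusted values of 0.06 and -0.03.

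The scaffold subunit PPP2R1A, which every PP2A trimer of its kind is built on, fell slightly while these B subunits rose. Its means were 11037 in control, 11338 in trex0108, 10015 in trex4039, 10141 in trex5008 and 11849 in trex8168. The log2 fold changes were -0.14 in trex4039 and -0.12 in trex5008 (adjusted p 0.0198 and 0.0478 in the authors' deposited table), and the GC-adjusted values -0.05 and -0.04. PPP2R3B lies in a region shared by X and Y, so reads of its 2 rows cannot be told apart; the row on X fell by 0.39 and that on Y by 0.34 in trex4039 in the authors' deposited table. Both rows stand in the counts of rows given here, though they are 1 gene.

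PPP3R1, the regulatory subunit of calcineurin, the calcium-dependent phosphatase, had the highest deposited log2 fold change of all members in trex4039 and in trex5008, although MAP3K9 was higher in both by GC-adjusted value and PPP2R3C stood as high against control in trex5008 by the means, at 136% each. PPP3R1 (chr2:68393217-68506255) had means of 3425 in control, 3758 in trex0108, 5321 in trex4039, 4644 in trex5008 and 4233 in trex8168. The log2 fold changes were 0.61, 0.42 and 0.29 in trex4039, trex5008 and trex8168 (adjusted p 1.5e-28, 4.61e-13 and 5.88e-06 in the authors' deposited table), and the GC-adjusted values 0.34, 0.24 and 0.20. The neighbour PNO1, whose row covers 13.2% of the PPP3R1 row, rose by 0.38, 0.22 and 0.27 in the authors' deposited table. PPP4R1, a regulatory subunit of PP4, rose in the same 3 groups by 0.34, 0.23 and 0.17 and PPP4R4 in trex4039 by 0.31 in the authors' deposited table, with GC-adjusted values of 0.12, 0.07 and 0.06 for PPP4R1 and 0.00 for PPP4R4. PPP6R2, of PP6, fell from 5861 to 5066 in trex4039, by 0.20 in the authors' deposited table, with a GC-adjusted value of -0.00.

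The regulatory subunits of PP1, 12 listed of 42 symbols, included both other changes of trex0108. PPP1R15A (GADD34, which directs PP1 to the translation factor eIF2 alpha and is induced by stress; chr19:49375500-49387878) had means of 3300.2 in control, 4118 in trex0108, 3473 in trex4039, 3252 in trex5008 and 3281 in trex8168. It rose by 0.30 in trex0108 (adjusted p 0.000105) and was called in no other comparison in the authors' deposited table. The PPP1R15A row spans 338% of the annotated gene and may hold neighbouring transcripts. A TULP2 row covers 99.3% of it, and TULP2 was not called in trex0108 (-0.16) in the authors' deposited table. PPP1R26 (chr9:138359481-138391020) had 1593 in control, 1319 in trex0108, 1119 in trex4039, 1327 in trex5008 and 1423 in trex8168. It fell in the first 3 by 0.25, 0.47 and 0.24 (adjusted p 0.0203, 9.89e-10 and 0.00321 in the authors' deposited table), with GC-adjusted values in trex4039 and trex5008 of -0.20 and -0.02. The antisense gene PPP1R26-AS1, over 47.6% of the row, fell by 0.39 in trex4039 and was not called in trex0108 and trex5008 in the authors' deposited table.

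In trex4039 6 PP1 subunit rows fell, 1 of them the PPP1R21 fragment described further down, and 2 rose in the authors' deposited table, of which PPP1R3F, PPP1R12C and PPP1R12A had GC-adjusted values of the other sign. PPP1R13L (iASPP, an inhibitor of p53 family proteins) went from 986 to 654 in trex4039 and 792 in trex5008, with -0.55 and -0.29 in the authors' deposited table and GC-adjusted values of -0.22 and -0.04. An unnamed row with a control mean of 4767 covers all of the PPP1R13L row. That row fell too, with -0.11 and -0.12 in the authors' deposited table. PPP1R35, a centrosomal protein, fell by 0.36 and 0.26 in the authors' deposited table, and its GC-adjusted values were -0.03 and 0.00. PPP1R2, an inhibitor of PP1, rose from 2475 to 3341 in trex4039 and 3003 in trex5008, by 0.40 and 0.26 in the authors' deposited table, with GC-adjusted values of 0.09 and 0.05. Of the myosin phosphatase targeting subunits, PPP1R12A rose from 3303 to 3838 and PPP1R12C fell from 2969 to 2499 in trex4039, by 0.21 and 0.24 in the authors' deposited table, and both signs turned in the GC-adjusted values, -0.10 and 0.10. PPP1R7 (SDS22), a conserved partner of PP1, rose by 0.21 in trex5008 and 0.23 in trex8168, and PPP1R9A (neurabin) by 0.26 in trex5008, in the authors' deposited table, with GC-adjusted values of 0.28, 0.20 and 0.09.

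Of the 68 rows 65 were called in at least 1 comparison: 28 in 1, 28 in 2 and 9 in 3. None was called in all 4, and none was called in opposite directions, by the authors' adjusted p. The authors' deposited table holds only rows with a smallest adjusted p under 0.1, so a call in some comparison is nearly given. The same counts were not made over all listed rows, so they give no result particular to the members. Among the 9 called in 3 comparisons were MAP2K4, MAPKAP1, PPP2R2A, PPP2R5C, PPP3R1, PPP4R1 and RPS6KC1, each higher in trex4039, trex5008 and trex8168, and PPP1R26, lower in trex0108, trex4039 and trex5008. These comparisons share their control libraries. The 3 rows called in none were DUSP26, PPP1R16B and PPP2R2D.

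In trex4039 and trex5008 the median GC content of the transcripts was lower in members that rose than in members that fell. GC was taken from the GENCODE transcript with the longest coding sequence and was found for all 68 rows. Its median was 41.7% in the 31 members higher in trex4039 and 62.3% in the 25 lower, and 42.0% in the 23 higher and 62.0% in the 16 lower in trex5008. Over the listed protein-coding rows the same medians were 41.6% and 59.8% in trex4039 and 41.4% and 60.3% in trex5008, so the members follow the table as a whole. Across the 68 member rows Spearman's rho of GC content with the deposited log2 fold change was -0.74 in trex4039, -0.68 in trex5008, -0.22 in trex8168 and -0.43 in trex0108. Over 6111 listed protein-coding rows it was -0.78, -0.78, -0.28 and -0.39; genes are not independent replicates, and their changes share libraries. Single members stood apart from this: MAP3K9 (60.6%) and MAPKAPK2 (57.7%) rose in trex4039, and the 3 risers of trex0108 had a median GC of 58.8%. Members higher in trex4039 had a longer median transcript than members lower, 4400 bases against 3340, and a longer median gene, 81190 against 26647 bases, but a shorter median coding sequence, 1359 against 1875 bases. Over the listed protein-coding rows these medians were 3777 against 3000, 52074 against 23127 and 1455 against 1632 bases.

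**Figure D4:**
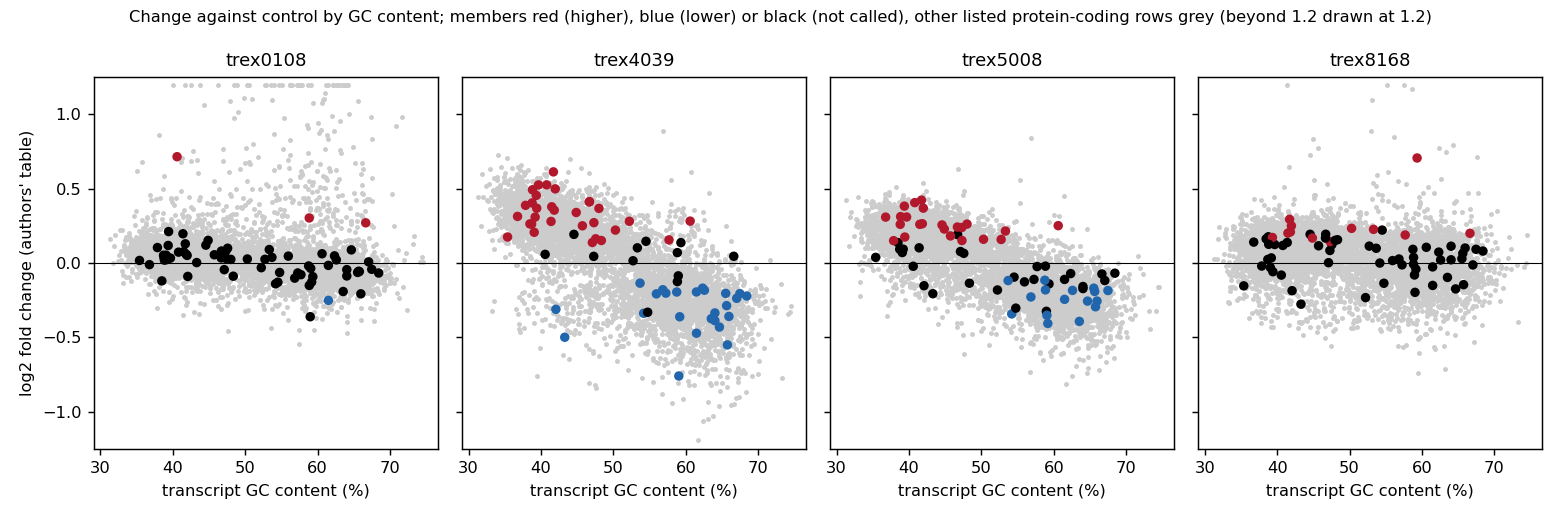
Deposited log2 fold change (y axis) against transcript GC content in percent (x axis) for the members (red higher, blue lower, black not called) over the other listed protein-coding rows (grey) in the 4 comparisons. In trex4039 and trex5008 red members gather near 42% and blue ones near 62%, along the slope of the grey points, while trex0108 and trex8168 show a weaker slope.

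With the GC trend removed and the overall median kept, the called members divided into 46 higher and 10 lower in trex4039, in place of 31 and 25, and into 33 and 6 in trex5008, in place of 23 and 16. With the median set to 0 they divided into 35 and 21 and into 28 and 11. In that second form, 25 of the 31 risers and 15 of the 25 fallers of trex4039 kept their direction, as did 21 of 23 and 9 of 16 in trex5008 and all 12 risers of trex8168. Those that also kept at least 0.5 of their size in trex4039 were DUSP6, MAP3K9, MAPKAP1, MAPKAPK2, PPP2CB, PPP2R5A, PPP3R1 and SPRY4 among risers and MAP4K1, MAP4K2, PPP1R21 and PPP6R3 among fallers. All 4 calls of trex0108 kept their direction too, with 0.5 or more of their size. Unlike transcript GC, the GC content of the promoter windows was alike in both directions, with medians of 75.0% and 72.3% in members higher and lower in trex4039 and 75.3% and 74.0% in trex5008.

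The 2 fallers PPP1R21 and PPP6R3 are not measures of their genes. The row named PPP1R21 spans 1.3% of that gene, and its means were 39.6 in control, 39.7 in trex0108, 17.5 in trex4039, 29.7 in trex5008 and 26.2 in trex8168. It fell by 0.50 in trex4039, while the row that encloses it, with a control mean of 1377, rose by 0.23 in the authors' deposited table. The PPP6R3 row spans 3.34% of its gene, with 22.5 in control and 9.21 in trex4039, and fell by 0.31 while the enclosing row rose by 0.24 in the authors' deposited table. Of the 112 listed protein-coding rows that span under 5% of their gene, 4 were higher and 71 lower in trex4039 in the authors' deposited table, and of the 5826 that span at least 50%, 2574 and 1622. Without the members under 50%, 31 were higher and 23 lower in trex4039. In all, 32 member rows are overlapped by another listed row and 36 by none.

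On chromosome 19, looked at after the values were seen, 8 of the 9 member rows were lower and 0 higher in trex4039 and 6 were lower in trex5008 in the authors' deposited table. They were MAP2K2, MAP2K7, MAP3K10, MAP4K1, PPP1R12C, PPP1R13L, PPP2R1A and PPP5C, with PPP1R15A not called. Of the 569 listed protein-coding rows of that chromosome, 373 were lower and 60 higher in trex4039 in the authors' deposited table. In trex5008 292 of these rows were lower and 33 higher. Members elsewhere numbered 31 higher and 17 lower of 59 in trex4039, beside 3032 and 1921 of 6878 listed protein-coding rows. MAP2K2, MAP2K7, MAP3K10, PPP1R12C and PPP5C had GC-adjusted values above 0 in trex4039.

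Other genes of the pathway, taken from a list of 98 of which 46 were listed in 52 rows, split in the same comparisons. In trex4039 18 rows were higher and 19 lower, in trex5008 11 and 16, in trex8168 7 and 1 and in trex0108 6 and 0 in the authors' deposited table. Of all listed protein-coding rows, 41.6% were higher and 30.9% lower in trex4039, and 32.4% and 24.6% in trex5008. The shares were 16.6% and 4.57% in trex8168 and 5.52% and 0.228% in trex0108. The counts by role below were not set against such shares and give no result particular to a role. Transcriptional targets gave 2 rises and 5 falls in trex4039 and 2 and 6 in trex5008. In trex8168 they gave 1 and 1 and in trex0108 4 and 0, in the authors' deposited table. Among them EGR1, an immediate early gene that ERK induces, rose by 0.98 in trex0108 (adjusted p 8.64e-24) in the authors' deposited table. EGR2 and EGR3 rose there by 0.50 and 0.40. EGR1 also rose in trex5008 and trex8168, by 0.40 and 0.41, in the authors' deposited table. It was not called in trex4039, with -0.07 as deposited and 0.18 with the GC trend removed and the overall median kept. There DUSP6 and the SPRY genes were called higher, the SPRY genes close to the threshold. The MYC and JUN genes fell in trex4039, by 0.77 and 0.59, and in trex5008, by 0.45 and 0.27, while the ETS factor gene ETV1 rose by 0.50 in trex4039, in the authors' deposited table. Above the cascade, the scaffold gene SHOC2 and the RAS GTPase-activating gene RASA1 rose in trex4039 by 0.50 and 0.43 in the authors' deposited table. ARAF fell there by 0.30. A second RASA1 row, with means of 8.76 in control and 1.71 in trex4039, fell by 0.26 (adjusted p 0.0345 in the authors' deposited table). Of the mTOR inputs to the RPS6K genes 3 rows rose and 5 fell in trex4039, among them TSC2 at -0.47 and RHEB at 0.28, in the authors' deposited table. Receptors and adaptors gave 3 and 5, among them FGFR3 at -0.32 and FRS2 at 0.33, in the authors' deposited table. Stress inputs gave 4 and 1, among them TAB3 at 0.40 and TAB1 at -0.29. These are counts of rows and not of genes, and some rows have low means. The falls hold both GRB2 rows (control means 22.2 and 11.8) and a second RPTOR row (41.3). The stress rises hold a further RAC1 row with a control mean of 4.73. After the GC trend was taken out, here with the overall median kept, the trex4039 values were 0.03 for ARAF and 0.07 for both FGFR3 and TAB1. This form gives higher trex4039 values than the GC-adjusted form used for members, with -0.42 against -0.52 for MAP4K1. Whether ARAF, FGFR3 and TAB1 keep their negative sign without the trend is therefore not settled. With the overall median kept, TSC2 stood at -0.09, MYC at -0.58, JUN at -0.30, ETV1 at 0.28 and SHOC2 at 0.26. The first RASA1 row stood at 0.36, RHEB at 0.24, FRS2 at 0.09 and TAB3 at 0.20, and the sign of FRS2 is likewise not settled.

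Markers of the HEK293 line (LHX1, NEFM, PAX2 and SALL1, 4 listed of 7) had summed means of 8059 in control, 8241 in trex0108, 5841 in trex4039, 7075 in trex5008 and 7853 in trex8168. Of these, 4, 3, 2 and 0 were lower in trex4039, trex5008, trex8168 and trex0108, where 25, 16, 0 and 1 member rows were lower, in the authors' deposited table. The part of these markers in the members' values was not tested. Of markers of other cells, 0 of 6 for neurons and 0 of 4 for blood cells were listed and so were not analysed here. The neural progenitor markers HES5 and NES (2 listed of 4) were both lower in trex4039 in the authors' deposited table. Of the fibroblast markers COL1A2 and LUM (2 of 5) 1 was higher and 1 lower in trex4039, and the epithelial marker KRT8 (1 of 4) was called in no comparison, in the authors' deposited table.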

How the data were processed

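RNA was sequenced from 15 HEK293FT libraries, 3 in each of 5 groups taken from their titles. The tools named per the submitters' processing notes, in no given role or order, are DESeq2 1.14.1, DESeq, Cufflinks, bedtools, STAR 2.5.1b and Bowtie2 2.2.1, and the builds GRCh37 and hg19; the strand setting, annotation and count filter are not stated there. The authors' deposited signal columns are mean normalised counts per group. The deposited log2 columns are the authors' shrunken log2 fold changes against control. The deposited p-value columns are the authors' adjusted p, taken as given. The deposited score columns hold the authors' calls of -1, 0 or 1 and were not needed for counts. Values per library were not used, so no model was fitted and no SD is given.

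Members, families, pathway genes and markers were chosen with earlier results of these data known. Genes were named by rule: all listed DUSP, SPRY, MAPK, MAP2K and catalytic PPP genes, the 3 largest called rises and falls per family with a mean of at least 50, every member called in trex0108 or in 3 comparisons, and the member of each family with the largest control mean; other names, the pairs and chromosome 19 were chosen after their values were seen. Some genes the rule takes are not reported here, though they stay in the counts. Of the pathway list, some called genes with large changes per role were named. GC content and length came from GENCODE v29 by symbol (82.1% of listed protein-coding rows matched) and served only as properties; coordinates of rows are hg19, as deposited. The trend was a lowess fit with span 0.3 (statsmodels 0.14.6, Python 3.11.15), tested on simulated data. The alternatives were adjusted p under 0.01 or 0.1, a mean of at least 50, the log2 ratio of means with a pseudocount of 1 and the GC trend removed; setting its median to 0 and leaving out rows under 50% of the gene were added after the data were seen.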

Additional observations from a re-analysis of the deposited data

How the results depend on the processing

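No paired analysis was possible because the deposited table holds group means and no value per replicate; leaving out single libraries was not run for the same reason. With the GC trend removed, 10 members were lower in trex4039 and 6 in trex5008, in place of 25 and 16, while 46 and 33 were higher; with its median set to 0 the lower counts were 21 and 11. At an adjusted p under 0.01, 0 members were lower in trex0108 in place of 1, 10 were lower in trex5008 and 7 were higher in trex8168 in place of 12. The median log2 fold change of members in trex5008, -0.02, was -0.0497 by the log2 ratio of means, 0.11 with the GC trend removed and 0.0375 among means of at least 50, so its sign is not settled. In every comparison the counts of higher and lower members stayed within 1.5 times their value at an adjusted p under 0.1, at a mean of at least 50 and without rows under 50% of the gene. Depth and the spread between libraries are unknown, which limits every value.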
